A study of Mus musculus with 24 samples.

Results

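The genes described here are 10 posterior Hox genes, Hoxa9, Hoxa10, Hoxa11, Hoxa13, Hoxb13, Hoxc10, Hoxd10, Hoxd11, Hoxd12 and Hoxd13, in the urogenital sinus (UGS) of mouse embryos. They were taken by their names in the array files, which gave 13 probes among 41174 probes for 28655 genes. Hoxa13, Hoxc10 and Hoxd13 had 2 probes each, and the other 7 genes had 1 each. The UGS is the embryonic tube of endoderm and mesenchyme from which the prostate grows. The series set 12 pairs of RNA pools against each other on 24 Agilent arrays with 2 colours, and each pair was measured on 2 arrays with the dyes exchanged.

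The embryos were C57/Bl6J mice with no stated mutation or transgene. Pools for the DHT comparisons came from embryos labelled female, whose mothers had received 50 mg/kg of dihydrotestosterone (DHT) or vehicle at 16.0 days post conception (dpc). Tissue was taken 6 h later for 4 of these pairs and 12 h later for 3. DHT is the potent androgen made from testosterone. The remaining 5 pairs set males against their female littermates at 17.5 dpc, with no treatment of the mother, a comparison that the labels count as the 48 h point. Accessory ducts were removed by dissection, embryos were sexed by their gonads, and each pool held several embryos, so a replicate is a pair of pools and not an embryo. Each comparison was hybridised on a day of its own, so differences in level between 6 h, 12 h and 17.5 dpc cannot be told apart from that day.

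Hox genes encode homeodomain transcription factors. They lie in 4 clusters in the mouse, and genes of paralog groups 9 to 13, at one end of each cluster, are used in the caudal body, the limbs and the urogenital tract. Hoxa13 and Hoxd13 act in the genital tubercle and the UGS, and mice that lack their function have defects of the prostate or seminal vesicle. Hoxb13 acts in the prostate epithelium, and Hoxa10 patterns the uterus in females and the reproductive tract of males. Hoxa9, Hoxa10, Hoxa11 and Hoxa13 lie on chromosome 6, Hoxb13 on chromosome 11, Hoxc10 on chromosome 15, and Hoxd10 to Hoxd13 on chromosome 2.

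The promoters of the 3 genes with a probe that was lower after 6 h of DHT are shown because they are the sequences through which those transcripts start. RefSeq (build GRCm38.p6) held promoters for 8 of the 10 genes, and each window runs from 250 bases before to 50 bases after a start. Hoxa10 has 2 listed starts on the minus strand, at chr6:52240805-52241104 and chr6:52234890-52235189. The Hoxa13 window is chr6:52260831-52261130 on the minus strand, and the Hoxd13 window is chr2:74667975-74668274 on the plus strand. Capitals mark the letters of the CCAAT box (CCAAT or, on the other strand, ATTGG) and of the TATA box (TATAAA or TTTATA). The window of the first Hoxa10 start holds neither.
Hoxa10 start 1: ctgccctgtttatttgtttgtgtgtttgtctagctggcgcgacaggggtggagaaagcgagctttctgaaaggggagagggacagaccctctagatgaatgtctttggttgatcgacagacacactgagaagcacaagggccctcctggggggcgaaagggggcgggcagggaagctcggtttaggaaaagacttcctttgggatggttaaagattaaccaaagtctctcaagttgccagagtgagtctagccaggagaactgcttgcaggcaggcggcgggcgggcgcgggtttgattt
Hoxa10 start 2: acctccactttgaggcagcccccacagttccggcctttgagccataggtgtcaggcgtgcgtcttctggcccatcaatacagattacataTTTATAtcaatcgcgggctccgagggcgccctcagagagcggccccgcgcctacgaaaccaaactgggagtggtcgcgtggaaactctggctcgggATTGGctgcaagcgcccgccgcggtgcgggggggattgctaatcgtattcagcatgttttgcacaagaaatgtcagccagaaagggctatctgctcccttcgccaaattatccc
Hoxa13: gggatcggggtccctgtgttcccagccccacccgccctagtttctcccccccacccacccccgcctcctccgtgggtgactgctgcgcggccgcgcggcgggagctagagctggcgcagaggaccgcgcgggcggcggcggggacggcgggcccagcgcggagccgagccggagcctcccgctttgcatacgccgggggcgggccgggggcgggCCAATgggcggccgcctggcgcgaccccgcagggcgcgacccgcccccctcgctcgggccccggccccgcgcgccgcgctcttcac
Hoxd13: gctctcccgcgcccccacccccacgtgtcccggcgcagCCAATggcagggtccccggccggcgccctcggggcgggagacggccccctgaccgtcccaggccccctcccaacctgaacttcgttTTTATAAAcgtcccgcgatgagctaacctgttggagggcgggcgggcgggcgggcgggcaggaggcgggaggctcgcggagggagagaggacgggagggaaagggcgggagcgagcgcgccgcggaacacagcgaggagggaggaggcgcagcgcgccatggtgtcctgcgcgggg

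The GC content was 81.0% in the Hoxa13 window and 74.3% in the Hoxd13 window, against 54.3% and 57.3% in the Hoxa10 windows. CCAAT boxes stood in 5 of the 10 member windows and in 37.4% of 32851 windows of all genes. TATA boxes stood in 2 of 10 and in 13.6%, and the forward and reverse letters of the Hoxd13 match overlap in 1 run. The half-site of the androgen response element (AGAACA, or TGTTCT on the other strand) stood in 2 of 10, those of Hoxa9 and Hoxa11, and in 19.0% of all windows. None of the windows printed above holds it. A match of letters is a description of the window and says nothing of binding.

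Each of the 13 probes passed the filter of at least 1 channel well above background on 6 of the 24 arrays, as did 35477 of all probes. Of the 13, 12 were well above background on every array and the second Hoxc10 probe on 19. No Hox spot was saturated or marked as an outlier. Over arrays, the median spot signal was 101.5 to 149.8 in Cy3 and 93.4 to 136.8 in Cy5. The number of pairs of pools limits the precision. The mean brightness of the Hox probes ranked from the 12.5th percentile of kept probes (Hoxc10, second probe) to the 96.4th (Hoxd13, first probe).

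The vehicle pools of 3 pairs at 6 h did not match their labels. Eif2s3y, a Y-linked gene, had log2 levels of 8.66, 7.64 and 7.81 in the 6 h vehicle pools of pairs 2, 3 and 4, which are labelled female. In the female pools at 17.5 dpc it lay between 5.98 and 6.36, and in the males between 8.51 and 9.01. The 6 h vehicle pool of pair 1 had 6.02, and the 12 h pools lay between 5.90 and 6.16. Over 4 Y-linked genes (Eif2s3y, Ddx3y, Kdm5d and Uty) the mean log2 ratio at 6 h was −0.141, −1.27, −0.675 and −0.741. In pair 1 the ratios of Eif2s3y and Ddx3y were −0.0367 and −0.0724, but those of Kdm5d and Uty were −0.26 and −0.196, against −0.256 and −0.164 in pair 4. The Uty level of that vehicle pool, 6.20, was above the 5.89 to 6.05 of the females at 17.5 dpc. Its Kdm5d level, 6.24, lay within their 6.09 to 6.31. Uty was above background in only 10 of 24 pools, and in pair 1 at 12 h Kdm5d and Uty were at −0.165 and −0.134. By its mean, pair 1 had the least Y-linked difference of the 6 h pairs, and whether it was free of male RNA is not settled. The 6 h results are also given for pair 1 alone.

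Markers of the epithelium moved between pools too. All 13 of 13 listed epithelial markers, among them Epcam, Cdh1, Krt8 and Krt5, were above background in every pool and none was at 0, and all 9 of 9 mesenchymal markers were measured. The mean log2 ratio of the epithelial list over the 4 pairs at 6 h was −0.58, −0.46, −0.10 and 0.01. At 12 h it was 0.00, 0.31 and 0.58, and in males over females it was 0.11, 0.35, 0.51, 0.39 and 0.25. As a log2 sum of signal the list ranged from 13.71 to 13.91 in DHT and 13.88 to 14.33 in vehicle pools at 6 h, and from 14.31 to 14.80 and 14.28 to 14.39 at 12 h. It ranged from 14.68 to 15.24 in males and from 14.57 to 14.74 in females. The mesenchymal list had mean log2 ratios of 0.169, 0.116, −0.0073 and 0.00826 in the 4 pairs at 6 h. At 12 h its means were 0.0446, −0.00178 and −0.0188, and its part in the Hox ratios was not tested. In bulk tissue, fewer cells of a type and less RNA per cell cannot be told apart.

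**Figure D1:**
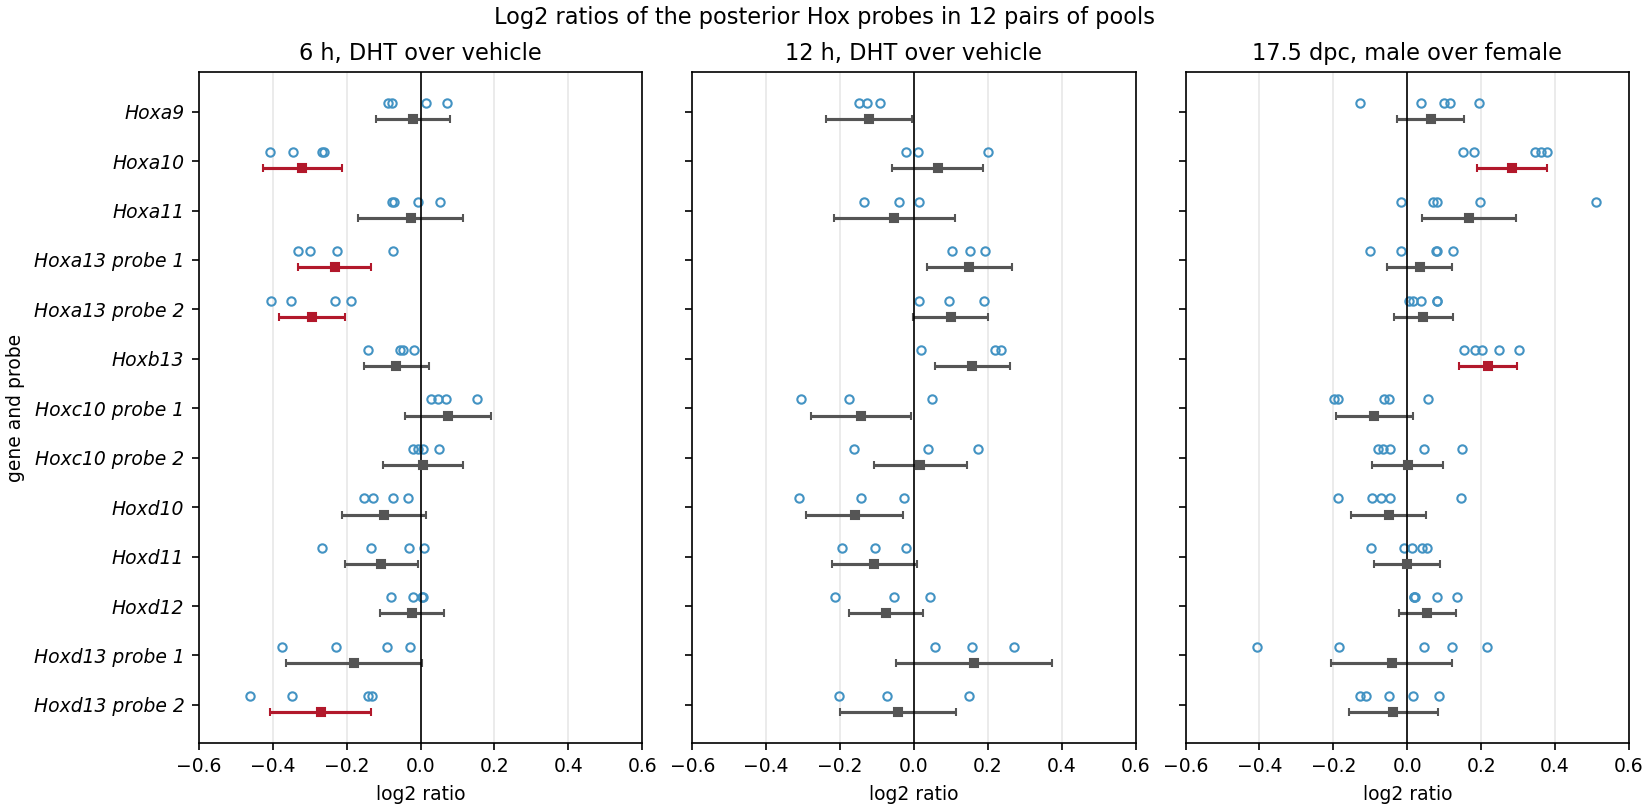
Log2 ratios of the 13 posterior Hox probes (rows) in 3 comparisons (panels). Open circles are pairs of pools (4 at 6 h, 3 at 12 h, 5 of males over females); squares with bars are the fitted mean with its 95% confidence interval, red where the adjusted p was under 0.05. At 6 h Hoxa10, both Hoxa13 probes and the second Hoxd13 probe lie left of 0 in every pair, and at 17.5 dpc Hoxa10 and Hoxb13 lie right of 0 in every pair.

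The 6 h comparison asked how the UGS answered DHT early. Hoxa10, Hoxa13 on both of its probes, and Hoxd13 on 1 of its 2 probes were lower in DHT than in vehicle pools, by log2 ratios of −0.23 to −0.32. No Hox probe was higher. Thus 4 of 13 probes were lower past the threshold of 0.05 on the p value adjusted over all probes (limma), where 1.23% of all 35477 probes were called lower, 0.454% higher and 1.69% in either direction. The remaining 9 probes did not pass, and 5 of 13 had an unadjusted p under 0.05, where 13.6% of all probes did. The median log2 ratio was −0.0982 over the 13 probes and 0.0048 over all probes.

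Hoxa10 had log2 levels of 9.22, 9.32, 9.22 and 9.21 in the vehicle pools and 8.81, 9.06, 8.95 and 8.87 in the DHT pools of pairs 1 to 4. Every vehicle pool was above every DHT pool. The log2 ratios were −0.41, −0.26, −0.27 and −0.34, with a mean of −0.32 (SD 0.07, n = 4, adjusted p = 0.00912, limma). The ratio was below 0 on 8 of 8 arrays, from −0.42 to −0.221, so it had the same sign in both dye orientations.

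Hoxa13, which acts in the caudal UGS and the genital tubercle, gave log2 levels on its first probe of 7.90, 7.90, 7.80 and 7.65 in vehicle pools. The DHT pools lay at 7.57, 7.60, 7.58 and 7.58. The groups did not overlap, and the DHT pools were nearly level while the vehicle pools spread. The log2 ratios were −0.33, −0.30, −0.23 and −0.07, with a mean of −0.23 (SD 0.11, n = 4, adjusted p = 0.0246, limma).

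The second Hoxa13 probe had 7.57, 7.49, 7.41 and 7.24 in vehicle and 7.16, 7.14, 7.18 and 7.05 in DHT pools. Again no DHT pool reached a vehicle pool. Its ratios were −0.41, −0.35, −0.23 and −0.19, with a mean of −0.29 (SD 0.10, n = 4, adjusted p = 0.00648, limma). Both probes were below 0 on 8 of 8 arrays and put the pairs in the same order, with pair 1 the lowest ratio and pair 4 the nearest to 0.

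Hoxd13, the paralog of Hoxa13 in the Hoxd cluster, was lower on its second probe, with log2 levels of 7.53, 7.44, 7.29 and 7.21 in vehicle and 7.07, 7.09, 7.15 and 7.08 in DHT pools. The groups did not overlap. The log2 ratios were −0.46, −0.35, −0.14 and −0.13, with a mean of −0.27 (SD 0.16, n = 4, adjusted p = 0.0498, limma), a value at the edge of the threshold.

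The first Hoxd13 probe, the brightest of the 13, had 12.12, 11.75, 11.77 and 11.67 in vehicle and 11.74, 11.52, 11.68 and 11.64 in DHT pools. Those groups overlapped. Its ratios were −0.38, −0.23, −0.09 and −0.03, with a mean of −0.18 (SD 0.15, n = 4, adjusted p = 0.376, limma), and it did not pass. The 2 probes had the same sign in each of the 4 pairs and differed in the call.

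Of the other genes, Hoxb13, the third member of paralog group 13 here, had ratios of −0.14, −0.05, −0.06 and −0.02 (mean −0.07, adjusted p = 0.56, limma). Hoxd10 had a mean of −0.10 with every pair below 0, and Hoxd11 a mean of −0.11 with 3 of 4 pairs below 0. Both genes act with their paralogs in the hindlimb, and neither passed (adjusted p = 0.467 and 0.324, limma). Hoxa9, Hoxa11 and Hoxd12 had means between −0.03 and −0.02, and the Hoxc10 probes had 0.07 and 0.01.

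By paralog group, the 5 probes of group 13 had a median log2 ratio of −0.233 with 5 of 5 below 0, and the 8 probes of groups 9 to 12 a median of −0.0245 with 6 of 8 below 0. Of the 13 probes, 7 were below 0 in every pair and 1 was above 0 in every pair, where 11.9% and 11.8% of all probes were. Of the 13 mean ratios 11 were below 0, where 46.6% of all probes were. By cluster, the 5 Hoxa probes and the 5 Hoxd probes were all below 0, and both Hoxc10 probes were above 0.

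The size of the 6 h ratios followed the pairs. The mean of the 5 group 13 probes was −0.343, −0.255, −0.149 and −0.0885 in pairs 1 to 4, the same order as the epithelial marker means above. Hoxa10 did not keep that order, since pair 4 was its second lowest ratio. With the epithelial mean as a covariate, Hoxa10 was at −0.25 (adjusted p = 0.148), the Hoxa13 probes at −0.20 and −0.26 (adjusted p = 0.252 and 0.107) and the second Hoxd13 probe at −0.27 (adjusted p = 0.283, limma), so the sign stayed and no Hox call was left. In that fit 23 of all 35477 probes passed at 6 h, against 599 without the covariate, so calls were lost far beyond the Hox probes. Immune cell markers (5 of 5 measured) had means of 0.363, 0.282, 0.166 and 0.15 over the same pairs. Markers of neurons and Schwann cells (6 of 6 measured) had 0.485, 0.0901, 0.0382 and −0.0392. The immune list and the neuron and Schwann list thus both fell from pair 1 to pair 4, the reverse of the group 13 order. Skeletal muscle markers (7 of 7 measured) had −0.424, −0.27, 0.117 and −0.0126, and smooth muscle markers (7 of 7 measured) −0.338, −0.0515, −0.106 and −0.0406, with 0 of 7 above 0 in pair 1 in both lists. The part of these 4 lists in the result was not tested. The order of pairs shared by group 13 and the epithelial markers was seen at 6 h only. At 12 h the group 13 means were 0.156, 0.105 and 0.0549 in pairs 1 to 3, the reverse of the epithelial order. Between the sexes they were 0.0804, −0.0352, −0.0528, 0.113 and 0.111, and the epithelial mean was highest in pair 3.

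In pair 1 alone, which had the Y-linked mean nearest to 0, the log2 ratios were −0.41 for Hoxa10, −0.33 and −0.41 for the Hoxa13 probes and −0.46 for the second Hoxd13 probe. Each was the lowest of the 4 pairs. With the Y-linked mean as a covariate over the 6 h and 12 h pairs, the values were −0.39, −0.26, −0.33 and −0.36. They were −0.32, −0.23, −0.29 and −0.27 without it. None passed with the covariate (adjusted p = 0.305, 0.437, 0.341 and 0.449, limma). In that fit 0 of all 35477 probes passed at 6 h, against 599 without the covariate, so the loss was not particular to the Hox probes. Pair 1 also had the lowest epithelial mean at 6 h, −0.575, so this fit cannot separate Y-linked RNA from the epithelial markers. The part of the Y-linked RNA was not tested. For pair 1 alone the spread has to be assumed from the other comparisons, so only the ratios above are given. Without pair 1 the values were −0.29, −0.20, −0.26 and −0.21, and none passed (adjusted p = 0.0866, 0.195, 0.0613 and 0.316, limma). Of all probes 35 passed in that fit. Without pair 2 no Hox probe passed, with adjusted p = 0.0504 for Hoxa10 and 0.0538 for the second Hoxa13 probe (limma), and 45 of all probes did. Without pair 3 the first Hoxa13 probe (adjusted p = 0.0725) and the second Hoxd13 probe (adjusted p = 0.0654) were lost, and without pair 4 the second Hoxd13 probe (adjusted p = 0.0615, limma). The fits without pair 3 and without pair 4 called 350 and 316 of all probes. With the scanner's own ratios, Hoxa10 was at −0.35 (adjusted p = 0.0703), and of the 4 probes only the second Hoxa13 probe passed in limma. Those ratios gave 50 calls over all probes.

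**Figure D2:**
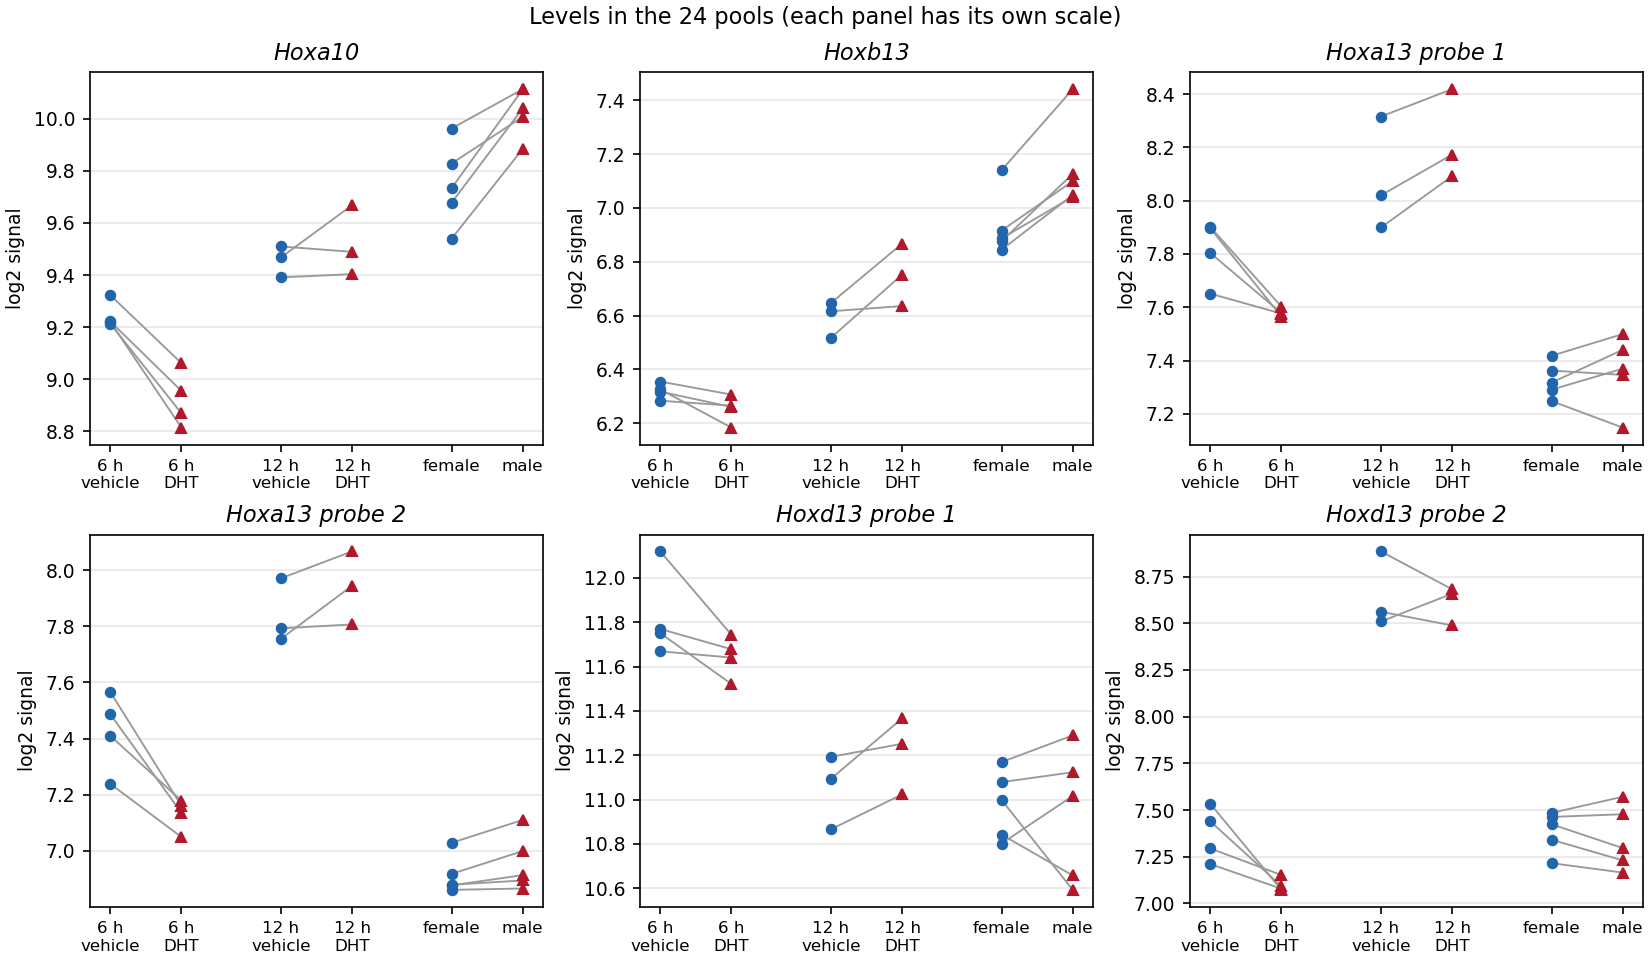
Log2 signal of Hoxa10, Hoxb13 and both probes of Hoxa13 and Hoxd13 in each of the 24 pools; lines join the 2 pools of a pair, circles are vehicle or female and triangles DHT or male pools, and each panel has its own scale that does not start at 0. Hoxa10 is lower in the DHT pool of each of the 4 pairs at 6 h and higher in the male pool of each of 5 pairs, and the Hoxd13 probes take different courses over the 3 hybridisation days.

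At 12 h no Hox probe passed the threshold, where 0.276% of all probes did (0.0987% higher and 0.178% lower). At an unadjusted p under 0.05 there were 5 of 13, where 15% of all probes stood below it. Of these 5, 2 had positive means, the first Hoxa13 probe at 0.15 and Hoxb13 at 0.16, and 3 negative means, Hoxa9 at −0.12, Hoxd10 at −0.16 and the first Hoxc10 probe at −0.14. The median log2 ratio over the 13 probes was −0.0424, against 0.000621 over all probes.

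Hoxa13 had ratios of 0.15, 0.19 and 0.10 on its first probe (mean 0.15, SD 0.04, n = 3, adjusted p = 0.2, limma) and of 0.19, 0.01 and 0.10 on its second (mean 0.10, SD 0.09, adjusted p = 0.344, limma). Each pair was above 0 on both probes, but the levels of the groups overlapped. Hoxb13 had 0.02, 0.23 and 0.22 (mean 0.16, SD 0.12, n = 3, adjusted p = 0.134, limma). Its vehicle pools had log2 levels of 6.62, 6.52 and 6.65 and its DHT pools 6.64, 6.75 and 6.87, so the groups overlapped. The Hoxb13 ratio was high in the 2 pairs in which the epithelial markers were high, and with their mean as a covariate it was at 0.085 (adjusted p = 0.428, limma). In these pairs, 2 and 3, the ratio was 0.44 and 0.40 on the arrays with DHT in Cy5. It was 0.03 and 0.04 on the arrays with the dyes exchanged, so the high values came from 1 dye orientation.

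Hoxa10, lower at 6 h, had ratios of −0.02, 0.01 and 0.20 at 12 h (mean 0.06, SD 0.12, n = 3, adjusted p = 0.667, limma), and its groups overlapped. The Hoxd13 probes had means of 0.16 and −0.04, and the second probe had 1 pair above and 2 below 0. Hoxa9, a gene of the blood-forming system and the reproductive tract, had vehicle levels of 8.53, 8.45 and 8.50 against 8.39, 8.35 and 8.37 with DHT. These groups did not overlap, and the ratio was below 0 on 6 of 6 arrays (adjusted p = 0.303, limma). Hoxa11, Hoxd11, Hoxd12 and the second Hoxc10 probe had means between −0.11 and 0.02. The 5 probes of group 13 had a median of 0.149, and the 8 of groups 9 to 12 a median of −0.0915. Of the 13 probes, 4 were above 0 in every pair and 3 below, where 16.3% and 19.3% of all probes were.

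Between the sexes at 17.5 dpc, Hoxa10 and Hoxb13 were higher in males and no Hox probe was lower. Thus 2 of 13 probes were higher, where 3.11% of all probes were higher, 3.08% lower and 6.19% called in either direction. The median over the 13 probes was 0.0333, against 0.000563 over all probes. At an unadjusted p under 0.05 there were 3 of 13, where 16.5% of all probes were. Of the 13 probes, 4 were above 0 in every pair and 0 below, where 7.4% and 7.3% of all probes were.

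Hoxa10 had log2 levels of 9.96, 9.83, 9.54, 9.68 and 9.73 in the female pools of pairs 1 to 5 and 10.11, 10.01, 9.88, 10.04 and 10.11 in their male littermates. The groups overlapped slightly, since the female pool of pair 1 was above the male pool of pair 3, but within each pair the males were higher. The log2 ratios were 0.15, 0.18, 0.35, 0.36 and 0.38, with a mean of 0.28 (SD 0.11, n = 5, adjusted p = 0.00124, limma), and 10 of 10 arrays were above 0. With median centring in place of loess it was at 0.20 and did not pass (adjusted p = 0.127, limma).

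Hoxb13, which acts in the prostate epithelium, had 6.89, 6.84, 6.88, 7.14 and 6.92 in females and 7.04, 7.05, 7.13, 7.44 and 7.10 in males. Pair 4 was high in both sexes, and the remaining pools of the sexes did not overlap. The ratios were 0.15, 0.20, 0.25, 0.30 and 0.18, with a mean of 0.22 (SD 0.06, n = 5, adjusted p = 0.00215, limma), and 10 of 10 arrays were above 0.

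The epithelial marker mean was also above 0 in each pair, as given above. With their mean as a covariate, Hoxa10 was at 0.21 (adjusted p = 0.0911) and Hoxb13 at 0.14 (adjusted p = 0.148, limma). That fit called 875 of all probes between the sexes, against 2197 without the covariate. Male pools of pairs 3 and 4 had fibroblast marker means of −0.499 and −0.691 against their females, while the other pairs had −0.127 to −0.0157, and skeletal muscle markers in pair 3 were at 1.26. Smooth muscle markers were below 0 in each pair, at −0.148, −0.065, −0.112, −0.672 and −0.282. Without pairs 3 and 4, Hoxa10 was at 0.24 (adjusted p = 0.0453) and Hoxb13 at 0.18 (adjusted p = 0.0723, limma), and 1063 of all probes passed. Markers of the Wolffian and Mullerian ducts had means of −0.318 to −0.0231 over the 5 pairs. The part of the smooth muscle and duct lists was not tested.

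Hoxa11, which acts in the uterus and the vas deferens, had ratios of −0.02, 0.20, 0.51, 0.07 and 0.08. Pair 3 was far above the others, the mean was 0.17 (SD 0.21, n = 5), and the gene did not pass (adjusted p = 0.134, limma). Hoxa13 had means of 0.03 and 0.04 with 95% confidence intervals of −0.06 to 0.12 and −0.04 to 0.12. Hoxd13 had means of −0.04 on both probes, and its first probe ranged from −0.41 in pair 3 to 0.21 in pair 1. Hoxd12, a gene of the digits, had 0.13, 0.02, 0.02, 0.08 and 0.02 and was above 0 on 10 of 10 arrays, with a mean of 0.05 that did not pass (adjusted p = 0.55, limma). Hoxa9, Hoxc10, Hoxd10 and Hoxd11 had means between −0.09 and 0.06.

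**Figure D3:**
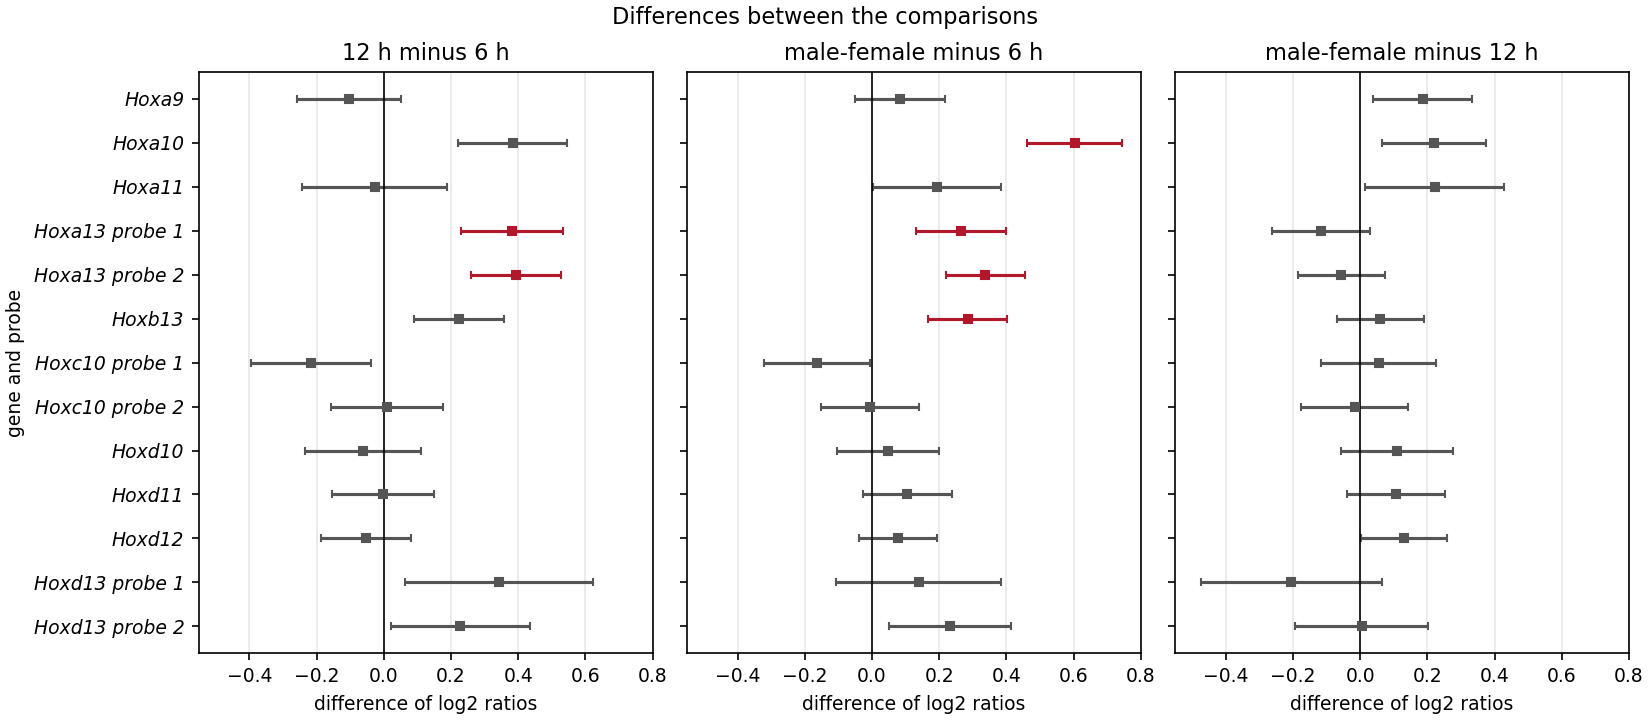
Differences between the log2 ratios of 2 comparisons for each of the 13 probes, with 95% confidence intervals, red where the adjusted p was under 0.05. Both Hoxa13 probes lie right of 0 in the first 2 panels, Hoxa10 has the highest value of the panels, 0.60, between the sexes minus 6 h, and no probe is red in the third panel.

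The differences between comparisons were tested in the same fit, and the comparisons share no pools. For Hoxa13 the 12 h ratio was above the 6 h ratio by 0.38 on the first probe (adjusted p = 0.0483) and by 0.39 on the second (adjusted p = 0.0388, limma). These were the 2 of 13 Hox probes past the threshold, where 0.259% of all probes were. At an unadjusted p under 0.05 there were 7 of 13, where 14.8% of all were. Hoxa10 had a difference of the same size, 0.38, and did not pass (adjusted p = 0.058, limma). For the 2 Hoxa13 probes the test sat near its threshold: neither passed without 6 h pair 1 or 2, without any one of the 3 pairs at 12 h, or without male-female pair 2 or 4, which enter only the shared spread.

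Between the male-female and the 6 h ratios 4 of 13 probes differed, and the same test called 5.67% of all probes. At an unadjusted p under 0.05 there were 7 of 13, where 17.7% of all were. Hoxa10 differed by 0.60 (adjusted p = 0.000173), Hoxb13 by 0.28 (adjusted p = 0.00839), and the Hoxa13 probes by 0.27 and 0.34 (adjusted p = 0.023 and 0.00299, limma). In each the 6 h ratio was the lower. The first Hoxa13 probe did not pass without any one of 6 h pairs 1, 2 and 3 or male-female pairs 4 and 5. With 6 h pair 1 alone, Hoxa10 differed by 0.69 (adjusted p = 0.0533) and none of the 4 passed (limma). Between the male-female and the 12 h ratios 0 of 13 probes passed in limma, where 1.33% of all did, and 4 of 13 had an unadjusted p under 0.05, where 15.4% of all did.

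**Figure D4:**
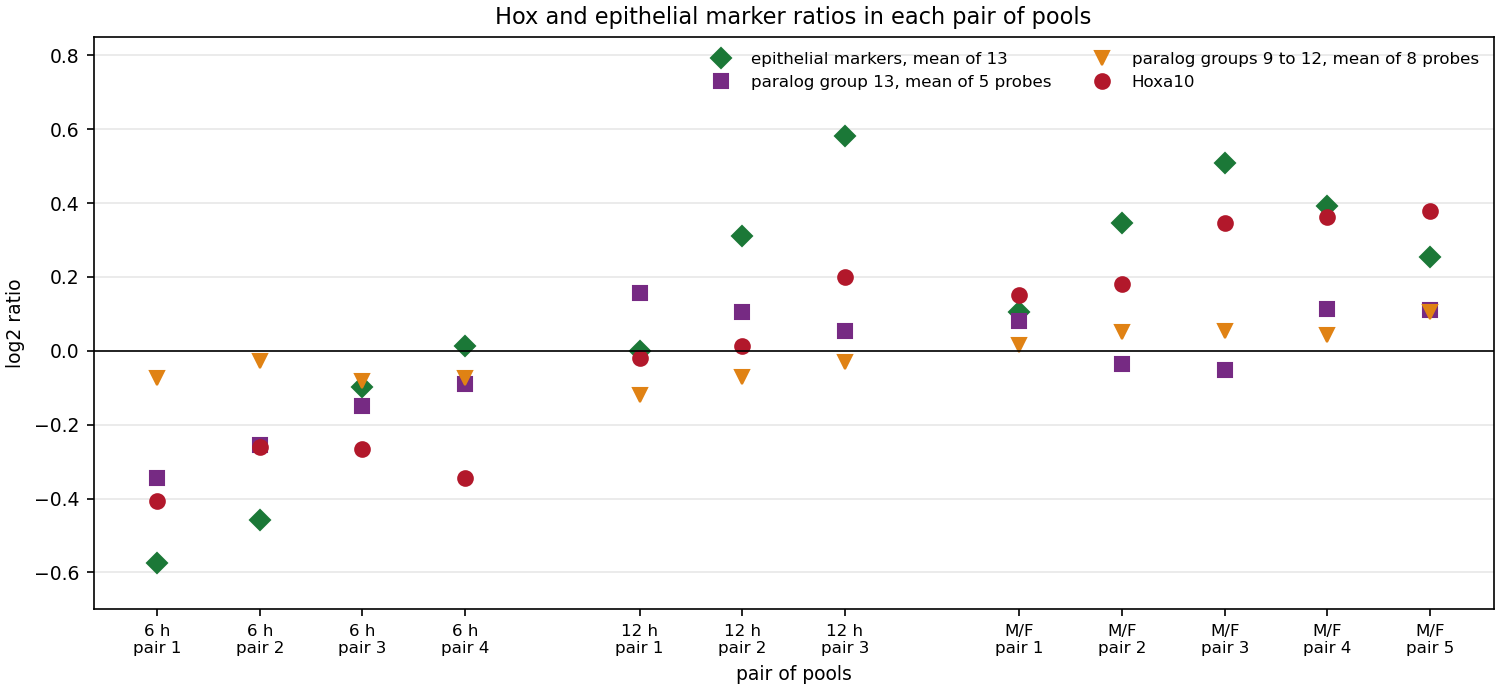
Log2 ratio (vertical axis) in each of the 12 pairs of pools (horizontal axis; M/F is male over female) of Hoxa10, of the means of 5 probes of paralog group 13 and 8 probes of groups 9 to 12, and of the mean of 13 epithelial markers. At 6 h the mean of groups 9 to 12, which hold Hoxa10, lies between −0.0828 and −0.027. The group 13 mean there runs from −0.343 to −0.0885 and the epithelial mean from −0.575 to 0.0126, in the same order of pairs. At 12 h the order is reversed: the group 13 mean falls from 0.156 to 0.0549 while the epithelial mean rises from 0.000376 to 0.581.

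The order of the 6 groups by level was not the same for all members. Hoxa10 had its lowest group mean in the 6 h DHT pools (8.92 ± 0.11, SD, n = 4), followed by 6 h vehicle (9.24 ± 0.05), 12 h vehicle (9.46 ± 0.06), 12 h DHT (9.52 ± 0.14), females (9.75 ± 0.16) and males (10.03 ± 0.09). The 12 h DHT, female and male groups each overlapped their neighbour below. Hoxb13 had the same order, from 6.25 ± 0.05 to 7.15 ± 0.17, and 1 step of it, from 6 h vehicle to 12 h vehicle, was without overlap.

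Hoxa13 had the same order of groups on both probes, lowest at 17.5 dpc (7.33 ± 0.07 and 6.91 ± 0.07 in females) and highest with DHT at 12 h (8.23 ± 0.17 and 7.94 ± 0.13). The Hoxd13 probes disagreed: the group means of the first ran from 10.94 to 11.83 with 6 h vehicle highest, and those of the second from 7.10 to 8.65 with 12 h vehicle highest. Hoxa9 was highest at 12 h (8.49 ± 0.04 in vehicle), without overlap with the other days. For Hoxa11, Hoxc10, Hoxd11 and Hoxd12 every group overlapped its neighbours in the order of levels.

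Over the 12 pairs, some members had ratios that ran together. The pairs come from 3 comparisons with different means, such as −0.32, 0.06 and 0.28 for Hoxa10. The correlations here and below therefore hold shifts between comparisons as well as differences between pairs within one. As a description over pairs that share their arrays and pools with each other's values, Hoxa10 and Hoxb13 had r = 0.916, the 2 Hoxa13 probes 0.912, Hoxa13 and Hoxd13 on their second probes 0.842, and the 2 Hoxd13 probes 0.738. The lowest was −0.715, between the first probes of Hoxa13 and Hoxc10. The genes whose ratios were most like Hoxa10 were Tspan1, a tetraspanin (r = 0.978), and P2y5, a receptor by its name in the file (0.976). Those most like Hoxb13 were Arpc4, an actin nucleator subunit (0.965), and Rab25, a small GTPase of epithelial cells (0.961). Clp1 (0.958) and Frat2 (0.932) were most like Hoxa13, and Pip5k3 (0.919) and Sncaip (0.917) most like Hoxd13.

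For the remaining members, the most alike genes were Sst for Hoxa9 (r = 0.901), Me2 and Leprotl1 for Hoxa11 (0.95 and 0.935), and Prpf3 and Tmepai for Hoxc10 (0.868 and 0.864). For Hoxd10 they were Atp7a and Mesdc2 (0.852 and 0.849), for Hoxd11 Pitpnb and Dhx38 (0.885 and 0.881), and for Hoxd12 Slc6a9 and Cstad (0.879 and 0.86). These were the highest of the values over all kept probes above the median brightness, so they were chosen for their size.

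Around the members, the other Hox genes gave few calls. These lists and the ones below were chosen with earlier results of these data known. Of 6 other genes of paralog groups 9 to 13, 4 were measured (Hoxb9, Hoxc9, Hoxc12 and Hoxd9) and 0 passed in limma in any comparison. Between the sexes 3 of the 4 had an unadjusted p under 0.05, where 16.5% of all probes did. Of 23 genes of paralog groups 1 to 8, 21 were measured. At 6 h and 12 h 0 passed in limma, and 0 and 2 had an unadjusted p under 0.05, where 13.6% and 15% of all probes did. Between the sexes 3 were higher in males and 0 lower, where 3.11% and 3.08% of all probes were.

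These 3 were Hoxd8 at 0.43 (SD 0.12, n = 5, adjusted p = 5.82e-05), Hoxd4 at 0.67 (SD 0.38, adjusted p = 0.00113) and Hoxa7 at 0.13 (SD 0.09, adjusted p = 0.0457, limma). Hoxd8 and Hoxd4 lie on the same chromosome as Hoxd10 to Hoxd13, whose means between the sexes were −0.05 to 0.05. The Hoxd4 pairs ranged from 0.18 to 1.18, so the pairs differed in size and not in sign. The Hoxa7 call was lost in 17 of 26 alternative settings.

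The TALE homeodomain proteins bind DNA together with Hox proteins. All 9 listed genes were measured, and 0 passed at 6 h or 12 h in limma. At an unadjusted p under 0.05 there were 2 and 3, where 13.6% and 15% of all probes stood below it. Between the sexes 1 was higher in males and 4 were lower, where 3.11% and 3.08% of all probes were. The lower genes were Meis1 at −0.29 (adjusted p = 0.00247), Pknox1 at −0.24 (adjusted p = 0.00192), Meis2 at −0.21 (adjusted p = 0.0206) and Pbx3 at −0.14 (adjusted p = 0.0438, limma). Meis2 lost its call without pair 1 or pair 4, and Pbx3 without any one of male-female pairs 1, 2, 3 and 4 or any 1 pair at 6 h or 12 h. Without pairs 3 and 4 Pbx3 was at −0.08 (adjusted p = 0.562), and with the epithelial mean as a covariate none of the 4 passed (adjusted p = 0.102 to 0.459, limma).

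Of 10 regulators known to act upstream of Hox genes, 9 were measured. None passed in limma at 6 h or 12 h. At an unadjusted p under 0.05 there were 1 and 0, against 13.6% and 15% of all probes. Between the sexes 0 were higher in males and 2 lower, where 3.11% and 3.08% of all probes were. Between the sexes Bmi1, a Polycomb protein that keeps Hox genes silent, was lower in males at −0.17, and Suz12, of the Polycomb complex that methylates histone H3, at −0.15 (adjusted p = 0.0215 and 0.0317, limma). Both lost their calls without pair 1 or pair 4, and Bmi1 also without pair 5. With the epithelial mean as a covariate neither passed (adjusted p = 0.238 and 0.128, limma).

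Genes reported elsewhere as targets or partners of posterior Hox proteins were all measured, 15 of 15. At 6 h and 12 h 0 passed in limma, with 3 and 4 at an unadjusted p under 0.05, against 13.6% and 15% of all probes. Between the sexes 6 were higher in males and 2 lower, where 3.11% and 3.08% of all probes were. The medians over the 15 genes were −0.0646, 0.0749 and 0.0894 in the 3 comparisons.

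Shh, the hedgehog ligand of the UGS epithelium, was higher in males by 0.60 (SD 0.19, n = 5, adjusted p = 0.000527, limma). Shh had means of −0.29 at 6 h and 0.49 at 12 h (adjusted p = 0.149 and 0.0679), and the difference between these, 0.78, passed (adjusted p = 0.0483, limma). Aldh1a2, a retinoic acid synthase, was higher by 0.28 (adjusted p = 0.00797) and Bmp7, Fgf10 and Bmp2, which are secreted growth factors, by 0.22, 0.20 and 0.18 (adjusted p = 0.0131, 0.0175 and 0.0219, limma). Bmp7 lost its call without pair 1 or 4, Fgf10 without any one of pairs 2, 3, 4 and 5, and Bmp2 without any one of pairs 1, 4 and 5. With the epithelial mean as a covariate none of these 3 nor Aldh1a2 passed (adjusted p = 0.0531 to 0.223, limma).

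Enpp2, a secreted lysophospholipase, was lower in males at −1.06 (SD 0.25, n = 5, adjusted p = 4.32e-06, limma), and its pairs ranged from −1.41 to −0.80. Epha7, an ephrin receptor reported as a Hoxa13 target in the limb, was lower in males at −0.42 (SD 0.20, adjusted p = 0.00314, limma). It was at −0.32 with the epithelial covariate (adjusted p = 0.161) and at −0.355 without pairs 3 and 4 (adjusted p = 0.0728, limma). At 6 h Epha7 was at −0.32 (SD 0.11, n = 4, adjusted p = 0.071, limma), with its pairs between −0.44 and −0.18. Hoxa13 itself passed at 6 h and not between the sexes.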

How the data were processed

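The deposited scanner files hold spot intensity in 2 channels, local background and a log10 ratio of Cy5 over Cy3, made by the authors with Agilent Feature Extraction 7.5.1, per the file headers. The deposited series matrix holds a log2 ratio per probe and array; its signs already ran as DHT against vehicle and as male against female. How the authors centred it is not stated, and it served as an alternative.

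Files were read in R 4.3.3 (data.table version 1.17.8). The limma package (version 3.58.1) corrected mean signals by normexp with an offset of 50 and normalised each array by loess. Outlier spots were set to missing, signs were turned, and spots of a probe and then the 2 arrays of a pair were averaged. Levels came from the same data after Aquantile scaling of the channels. A probe was kept when well above background on at least 6 of 24 arrays. One limma fit over the 12 pairs gave the 3 comparisons and their differences, two-sided, with Benjamini-Hochberg adjustment over 35477 probes and 0.05 as threshold. Data were simulated for 35477 probes, with the noise of each probe drawn independently. The fit recovered 74% of 50 probes lowered and 64% of 50 raised by 0.3 at 6 h. It recovered 68% and 56% at 12 h, and 72% and 84% between the sexes.

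The members and gene lists were chosen with earlier results of these data known. The labels call replicates biological, and each is a pair of pools. Named are every member probe, every listed gene past the threshold in a comparison, and for each member the 2 genes of highest correlation among probes above median brightness. The values of 3 genes that this rule names are not reported here. Figures were drawn with matplotlib 3.10.9, and tables with Python 3.11.15 and pandas 2.3.3. The alternatives are in the closing section.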

Additional observations from a re-analysis of the deposited data

Results flagged for a closer look

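In groups of 4 or 5 pools, 78 sets of member levels and ratios were searched for a pool far from the rest, and 4 stood apart, where chance gives about 1 in 20. Hoxa10 in the 6 h vehicle pool of pair 2 had a log2 level of 9.32, and the other 3 pools lay at 9.21 to 9.22. Hoxb13 in pair 4 at 17.5 dpc had 7.14 in the female pool, where the others lay at 6.84 to 6.92, and 7.44 in the male pool, where the others lay at 7.04 to 7.13. Its log2 ratio in that pair, 0.30, was not apart from the other pairs. The second Hoxc10 probe had 6.24 in the female pool of pair 1, against 6.12 to 6.13 in the others.

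The tests of differences between comparisons gave 6 values past the threshold. Hoxa10 differed by 0.60, Hoxb13 by 0.28 and the 2 Hoxa13 probes by 0.27 and 0.34 between the male-female and the 6 h ratios. The Hoxa13 probes differed by 0.38 and 0.39 between 12 h and 6 h. The 6 h pairs 2 to 4, whose vehicle pools had high levels of Eif2s3y, enter each of these values. With pair 1 alone at 6 h, the differences in the same order were 0.69, 0.36, 0.365, 0.449, 0.481 and 0.505, and none passed (adjusted p = 0.0533 to 0.167, limma).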

How the results depend on the processing

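No value past the threshold changed sign under the 27 settings tried. Of the 33 Hox values in the 3 comparisons that did not pass, 14 changed sign under at least 1 setting, such as Hoxb13 at 6 h with the epithelial covariate (0.0022). At 6 h the count of probes called was 599, and of Hox probes 4. The scanner's own ratios gave 50 and 1 (Hox median −0.182), median centring 271 probes, the series matrix 996, each comparison fitted alone 312 and 2, 24 arrays with the pair as random block 1707, and the brightest probe per gene 2 Hox probes. Whether replicate numbers pair samples of different comparisons is not settled. The 10 correlations of same-numbered pairs ran from −0.061 to 0.272, and those of pairs with different numbers from −0.329 to 0.332. The replicate block gave 176 and 2 at 6 h and 6 probes at 12 h. The Y-linked mean as covariate gave 0 and 0, and the epithelial mean 23 and 0. With the Y-linked covariate the 4 Hox values called at 6 h lay between −0.39 and −0.26, against −0.32 to −0.23 as reported. With 6 h pair 1 alone the Hox median was −0.142. Leaving out 1 replicate gave 35 to 801 probes, 0 to 4 Hox probes and a median of −0.106 to −0.0521. At 12 h the 98 probes became 8 with no background correction, 28 with median centring, 172 with no filter, 28 with the filter of 18 arrays, 40 with outlier spots kept, 0 with the series matrix, 0 fitted alone, 339 with 24 arrays, 21 with the Y-linked covariate, 0 with the epithelial covariate, 3 with 6 h pair 1 alone, 28 without male-female pairs 3 and 4, and 0 to 130 without 1 replicate. Between the sexes the 2197 probes became 1017 fitted alone, 875 with the epithelial covariate, 1063 without pairs 3 and 4, and 1326 to 2206 without 1 replicate; the 2 Hox probes became 1 with median centring, 0 with the epithelial covariate and 1 without pairs 3 and 4. For 12 h minus 6 h the 2 Hox probes became 1 with no background correction, outlier spots kept, the series matrix or without pairs 3 and 4, 0 with the scanner's ratios, the brightest probe, either covariate or 6 h pair 1 alone, and 0 to 2 without 1 replicate. For male-female minus 6 h the 4 became 0 with the epithelial covariate or 6 h pair 1 alone, 2 without pairs 3 and 4, and 3 to 4 without 1 replicate. The causes were not tested. Where limma called 0, an unadjusted p under 0.05 was held by 3323 probes at 6 h, by 4008 to 5477 at 12 h, and by 3 to 7 of the Hox probes. At 6 h Hoxa10 lost its call in 6 of 27 settings, the first Hoxa13 probe in 9 of 27, the second in 5 of 26, and the second Hoxd13 probe in 18 of 26; between the sexes Hoxa10 and Hoxb13 each lost it in 2 of 26. In simulated data 56 to 84% of probes changed by 0.3 were recovered, so changes of that size can be missed. The simulated probes varied independently of each other, so these shares need not hold for the Hox probes.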
